A study of Mus musculus with 2 samples.

Results

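The axon guidance ligands and receptors are 69 of the 21938 protein-coding genes of the GENCODE M21 basic annotation. They were chosen by gene symbol, with earlier results of these data known. The ligand side (35 genes) held the semaphorins, ephrins, Slits and netrins. The receptor side (34 genes) held the plexins, neuropilins, Eph receptors, Robos and netrin receptors. Open chromatin was mapped by DNase-seq, in which the nuclease DNase I cuts DNA where it is exposed. The tissue was hindbrain of healthy B6NCrl mouse embryos aged 14.5 days, with male and female embryos pooled and with no treatment or mutation named. There was 1 group of 2 biological replicates, each a separate tissue sample. Both carry the same donor record in their labels. Whether they come from separate litters is not given, so technical and biological differences between them cannot be told apart.

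Growing axons and migrating neurons are steered by cues that attract or repel them. Secreted netrins bind Dcc to attract and Unc5 receptors to repel, Slits repel through Robo receptors, semaphorins act through plexins with neuropilins as co-receptors for the secreted class, and membrane-bound ephrins signal to Eph receptors on touching cells and back into their own cell. In the hindbrain these pairs act when commissural axons cross the midline floor plate, when precerebellar neurons migrate from the rhombic lip, and when cells of neighbouring rhombomeres are kept apart.

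Replicate 1 held 263679 peaks and replicate 2 held 148804. Of these, 111722 were shared, meaning that a peak of replicate 1 overlapped a peak of replicate 2 by at least 1 bp. Every peak is 150 bp wide and carries a deposited score of at most 150 whose meaning is not given in the sources used here. Median scores were 47 and 30, so scores of replicate 2 were lower at the median, and the rank within a library is given where libraries are compared. No read counts were given, so depth is unknown. Promoters of the marker genes for hindbrain and cerebellum held a shared peak in 12 of 12 cases. For neurons the count was 8 of 8 and for neural progenitors 7 of 7. It was 6 of 8 for meninges and mesenchyme, 4 of 8 for forebrain and 2 of 8 for endothelium. Microglia and leukocytes had 1 of 8, skeletal muscle 2 of 6 and erythroid cells 1 of 6. Over all protein-coding genes the share was 64.6%. It was 96.6% in those rich in CpG at the start (observed/expected at least 0.6) and 35.6% in the rest. CpG-rich were 10 of the 12 hindbrain markers, 7 of 8 for forebrain, 3 of 8 for neurons, 1 of 8 for endothelium and 0 of 8 for microglia and leukocytes. The part of CpG content in these counts was not tested. In whole tissue, a site open in few cells and a site open weakly in many cells cannot be told apart.

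The following 150 bp peaks carry the patterns described here. They are read 5′ to 3′ on the plus strand of mm10, and the first 3 lie within 1 kb of a transcription start of the named gene. In them, capitals mark CG dinucleotides. The Epha7 peak at chr4:28812956-28813105 held 16 CG and scored 145 and 123 in replicates 1 and 2. The Sema3b peak at chr9:107604776-107604925 held 2 CG and the Plxnb3 peak at chrX:73756716-73756865 held 0. Both were called in replicate 1 alone, with scores of 31 and 34.
Epha7 promoter: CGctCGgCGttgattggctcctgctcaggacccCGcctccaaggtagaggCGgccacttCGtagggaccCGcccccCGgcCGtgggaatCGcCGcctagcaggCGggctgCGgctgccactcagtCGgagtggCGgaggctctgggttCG
Sema3b promoter: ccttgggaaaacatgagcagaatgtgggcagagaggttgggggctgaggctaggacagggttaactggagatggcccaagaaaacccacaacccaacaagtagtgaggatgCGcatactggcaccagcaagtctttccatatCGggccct
Plxnb3 promoter: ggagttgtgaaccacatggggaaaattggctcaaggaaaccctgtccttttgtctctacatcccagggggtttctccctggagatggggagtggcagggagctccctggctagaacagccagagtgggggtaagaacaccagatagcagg

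The next 3 are among the 10 strongest distal sites near the guidance genes. Here capitals mark letters of a searched motif, CAGCTG (an E-box, bound by basic helix-loop-helix factors) or GTTGCC (an RFX half-site). The Sema3b site at chr9:107612796-107612945 lies 3642 bp upstream of the outermost Sema3b start, is intergenic and holds 2 marked E-boxes. The Efna2 sites at chr10:80159936-80160085 and chr10:80165096-80165245 lie 19471 bp and 14311 bp upstream of Efna2 and are also intergenic. A match describes the letters only.
Sema3b distal: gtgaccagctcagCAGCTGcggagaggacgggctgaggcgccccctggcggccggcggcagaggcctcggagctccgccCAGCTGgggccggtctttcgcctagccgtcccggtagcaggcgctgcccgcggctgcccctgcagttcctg
Efna2 distal 1: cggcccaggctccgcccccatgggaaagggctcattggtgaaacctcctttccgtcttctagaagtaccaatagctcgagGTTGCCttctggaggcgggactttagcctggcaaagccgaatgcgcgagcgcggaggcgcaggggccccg
Efna2 distal 2: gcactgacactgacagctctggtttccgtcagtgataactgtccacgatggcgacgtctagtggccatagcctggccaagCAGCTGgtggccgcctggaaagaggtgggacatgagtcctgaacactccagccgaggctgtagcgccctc

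Promoters of the guidance genes were open in most cases. A promoter peak is one with its midpoint within 1 kb of any annotated start of the gene. A promoter peak shared by both libraries was found at 65 of the 69 genes (94.2%), against 64.6% of all protein-coding genes. In replicate 1 alone the count was 68, against 69.9% of all genes, and in replicate 2 alone 65, against 65.7%. Ligands and receptors had similar shares, 33 of 35 and 32 of 34. All 8 ephrins, 14 Eph receptors, 5 netrin receptors, 3 Slits and both neuropilins held a shared promoter peak, as did 19 of 20 semaphorins, 8 of 9 plexins, 3 of 4 Robos and 3 of 4 netrins.

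The guidance genes also had starts richer in CpG than other genes. The median ratio of observed to expected CpG within 500 bp of the outermost start was 0.70 in the guidance genes and 0.57 in all protein-coding genes. Of the 49 guidance genes with a ratio of at least 0.6, 49 held a shared promoter peak, against 96.6% of all protein-coding genes with such a ratio. Of the 20 guidance genes with a lower ratio, 16 held one, against 35.6% of all such genes. The share thus differed little from the background among CpG-rich genes and was above it among CpG-poor ones. The CpG-poor class includes starts of all ratios under 0.6. Several of its open guidance genes lay near that cut, such as Ntn1 (0.59), Sema4f (0.59) and Dcc (0.57), while Sema3g (0.18) did not. The ratio is that of the outermost start, whereas a peak at any start counts. Sema3a (0.07) was open through an inner start with a ratio of 0.71. The part of these points in the share was not tested. No guidance gene had a start of another protein-coding gene within 1 kb (the closest, 3969 bp away, was at Ntn3), against 12.3% of all protein-coding genes.

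**Figure D1:**
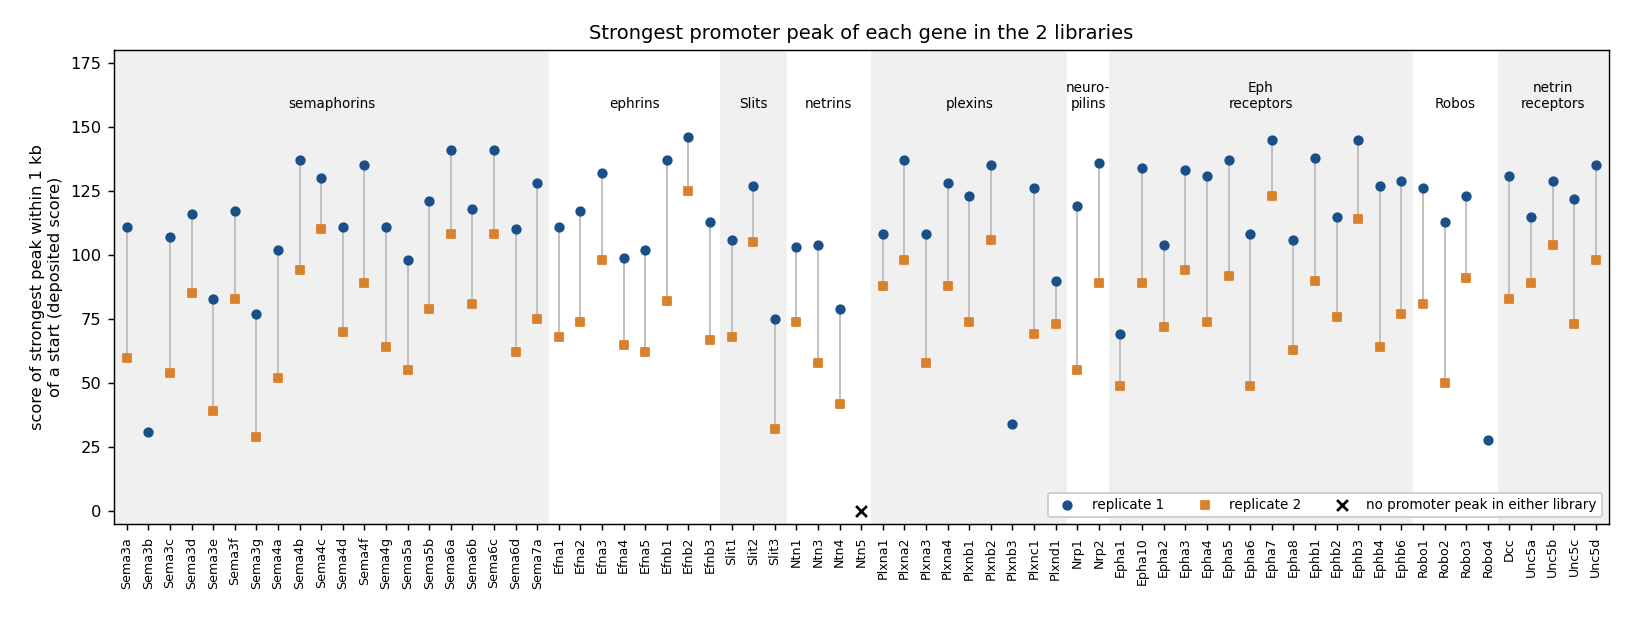
Highest deposited score of any promoter peak (vertical axis) of each of the 69 genes (horizontal axis, by family) in replicate 1 (circles) and replicate 2 (squares). In all 65 genes with a shared peak the score was higher in replicate 1, the library with the higher scores at large. Sema3b, Plxnb3 and Robo4 have a circle alone while Ntn5 has neither.

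The strongest promoter peak of a gene is its shared promoter peak with the highest mean rank over the 2 libraries, and in 6 genes a higher score in 1 library, as plotted, came from another promoter peak. Among ligands, the ephrin Efnb2, a membrane-bound ligand that also marks arteries, had the strongest promoter peak of all, scoring 146 in replicate 1 and 125 in replicate 2. That put it above 99.8% of peaks in each library. Its gene lies on chromosome 8 from 8617434 to 8661242 on the minus strand, and the peak was 29 bp from its start. Sema6a and Sema6c, transmembrane semaphorins, both scored 141 and 108, and Sema4c scored 130 and 110. Slit2, a secreted repellent of the floor plate, scored 127 and 105. These genes stayed above 95% of peaks in both libraries.

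Other ligand promoters were much lower. Slit3, from the same family as Slit2, scored 75 and 32, and the secreted semaphorins Sema3g and Sema3e scored 77 and 29, and 83 and 39. Ntn4 scored 79 and 42. In replicate 2 the scores of Slit3 and Sema3g were close to that library's median of 30, whereas in replicate 1 they lay well above its median of 47. The strongest promoter peaks of the 8 ephrins scored from 99 to 146 in replicate 1 and from 62 to 125 in replicate 2. Those of the 19 semaphorins with a shared promoter peak scored from 77 to 141 and from 29 to 110. The families differ in number of genes, so the widths of these ranges cannot be compared directly. Ntn1, the netrin secreted by the floor plate, scored 103 and 74.

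Among receptors, Epha7 scored 145 and 123 and Ephb3 scored 145 and 114. Plxnb2, which acts in cerebellar granule cell precursors, scored 135 and 106, Plxna2 scored 137 and 98, and Unc5b, a repellent netrin receptor, scored 129 and 104. Dcc, the attractive netrin receptor, scored 131 and 83. The lowest Eph receptor in replicate 1 was Epha1, at 69, and in replicate 2 both Epha1 and Epha6 scored 49, although Epha6 scored 108 in replicate 1.

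The median score of the strongest promoter peak was 119 in replicate 1 and 74 in replicate 2 over the 65 genes, lower than the 130 and 96 over all genes with a shared promoter peak. It was also lower than the 128 and 92 over the 11703 of those genes that had no other coding start within 1 kb. So the guidance promoters were called more often than the average promoter and scored lower than the average called one. Across the 65 genes the scores of the 2 libraries had a Spearman rank correlation of 0.828, against 0.905 over all 14169 called genes. Genes are not replicates, and the points share the same 2 libraries.

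The hotspots, the wider enriched regions deposited beside the peaks, differed in another way. The widest hotspot touching the promoter window had a median width of 1580 bp in replicate 1 and 742 bp in replicate 2 over the 65 genes, against 1246 bp and 870 bp over all called genes, so the guidance genes had the wider regions in replicate 1 and the narrower ones in replicate 2. The widest in replicate 1 was at Efna5, an ephrin of topographic maps, with 5212 bp, but it was 729 bp in replicate 2. Efnb2 had 4433 bp and 1330 bp, Slit2 had 4208 bp and 839 bp, and Epha7 had 3711 bp and 1528 bp.

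The 4 genes without a shared promoter peak were Sema3b, Ntn5, Plxnb3 and Robo4. Robo4, a receptor known from endothelial cells, had a peak 54 bp from a start in replicate 1 alone, with a score of 28. Plxnb3, known from oligodendrocytes, had one with a score of 34, and Sema3b, a secreted repellent, one with a score of 31. The Sema3b peak lay 551 bp from an inner start, 3.8 kb from the outermost one and with a CpG ratio of 0.42. All these scores lie under the median of 47 of that library, with 10.7%, 23.5% and 16.8% of its peaks below them. Ntn5, a small netrin, had no promoter peak in either library, although a hotspot of 471 bp in replicate 1 and 408 bp in replicate 2 reached into its promoter window. Just outside that window, 1131 bp upstream of its start and in an intron of Sec1, a shared peak scored 100 and 68. That peak counts as distal here. CpG ratios at the outermost starts were 0.16 for Robo4, 0.10 for Plxnb3, 0.17 for Sema3b and 0.18 for Ntn5. They were the 4 exceptions among the 20 CpG-poor genes. Of the 16 open ones, Sema3g had a ratio of 0.18 with its shared peak, and Epha10, with a ratio of 0.33, had one scoring 134 and 89.

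Several guidance genes have starts far apart, and these were not open alike. Starts within 500 bp of each other were merged, which gave 90 start clusters, of which 72 held a shared peak, 7 an unshared peak and 11 none. All 55 clusters with a CpG ratio of at least 0.6 held a shared peak, and 17 of the 35 under it did. Of 69 outermost clusters 62 were open in both libraries, and of 21 inner clusters 10 were. Counted from the outermost start alone, 62 of the 69 genes held a shared peak, against 62.59% of all protein-coding genes. Clusters were not formed for all genes, so the cluster counts given here, inner ones included, have no background. Among the 18 genes with more than 1 cluster, every cluster was open in 6.

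**Figure D2:**
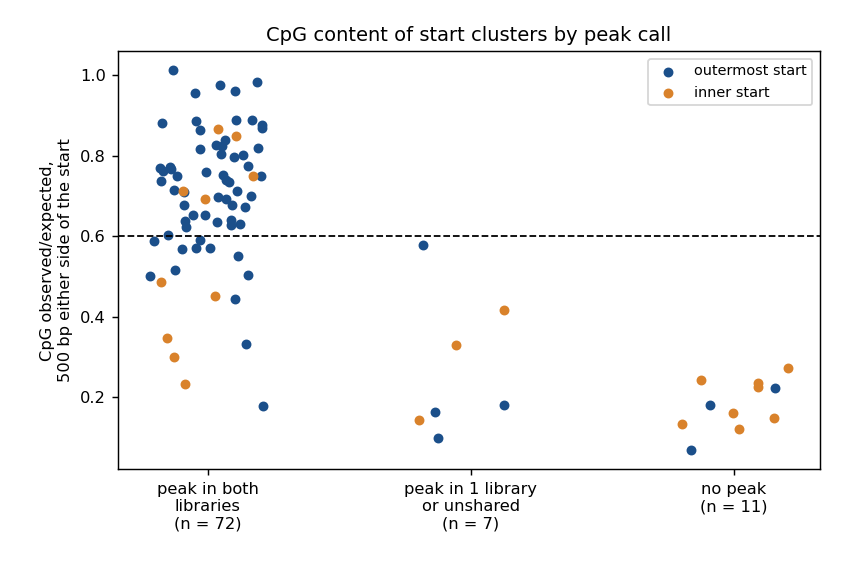
Ratio of observed to expected CpG within 500 bp of each start cluster (vertical axis), for the 72 clusters with a shared peak, the 7 with an unshared peak and the 11 with no peak. The dashed line marks 0.6, and no cluster above it lacks a shared peak.

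In 3 genes an inner start was open in both libraries while the outermost was not. Robo3, the receptor that lets commissural axons cross the midline, had a peak of score 54 in replicate 1 alone at its outermost start, and a shared peak of 123 and 91 at a start 3.1 kb further in. Sema3a, a secreted repellent, had no peak at its outermost start (CpG ratio 0.07) and a shared peak of 111 and 60 at a start 2.5 kb further in (0.71). Sema4a had a peak of 42 in replicate 1 alone at its outermost start, one of 102 and 52 at a start 2.1 kb in, and none at a further start 5.4 kb in. Ntn1 was open at both of its clusters, with 72 and 39 at the outermost and 103 and 74 at one 14.0 kb in. Sema6d, which spans 577.8 kb, had 85 and 36 at its outermost start and 110 and 62 at one 520.3 kb in. These values describe annotated starts, and which of them is transcribed was not measured.

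Distal sites were also more numerous near the guidance genes than near protein-coding genes at large. A distal site is a shared peak more than 1 kb from every annotated start of any gene and within 50 kb of the outermost start of the gene in question. The guidance genes had a median of 7 distal sites, with quartiles of 4 and 9 and a range of 0 to 18, against a median of 3 and quartiles of 1 and 6 over all protein-coding genes. Within single libraries the medians were 14 against 8 in replicate 1 and 8 against 4 in replicate 2. At least 1 distal site was present at 67 of 69 genes, against 82.3% of all genes, and 53 of 69 had more than 3, against 46.3% of all genes. Such counts were not particular to guidance genes. Among the marker lists, median distal counts were 8.5 for hindbrain and cerebellum, 8 for neural progenitors, 7.5 for neurons and 7 for skeletal muscle. They were 4.5 for microglia and leukocytes, 4 for forebrain and for meninges and mesenchyme, and 2.5 for endothelium and for erythroid cells. Counted once each, 454 sites lay near guidance genes.

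**Figure D3:**
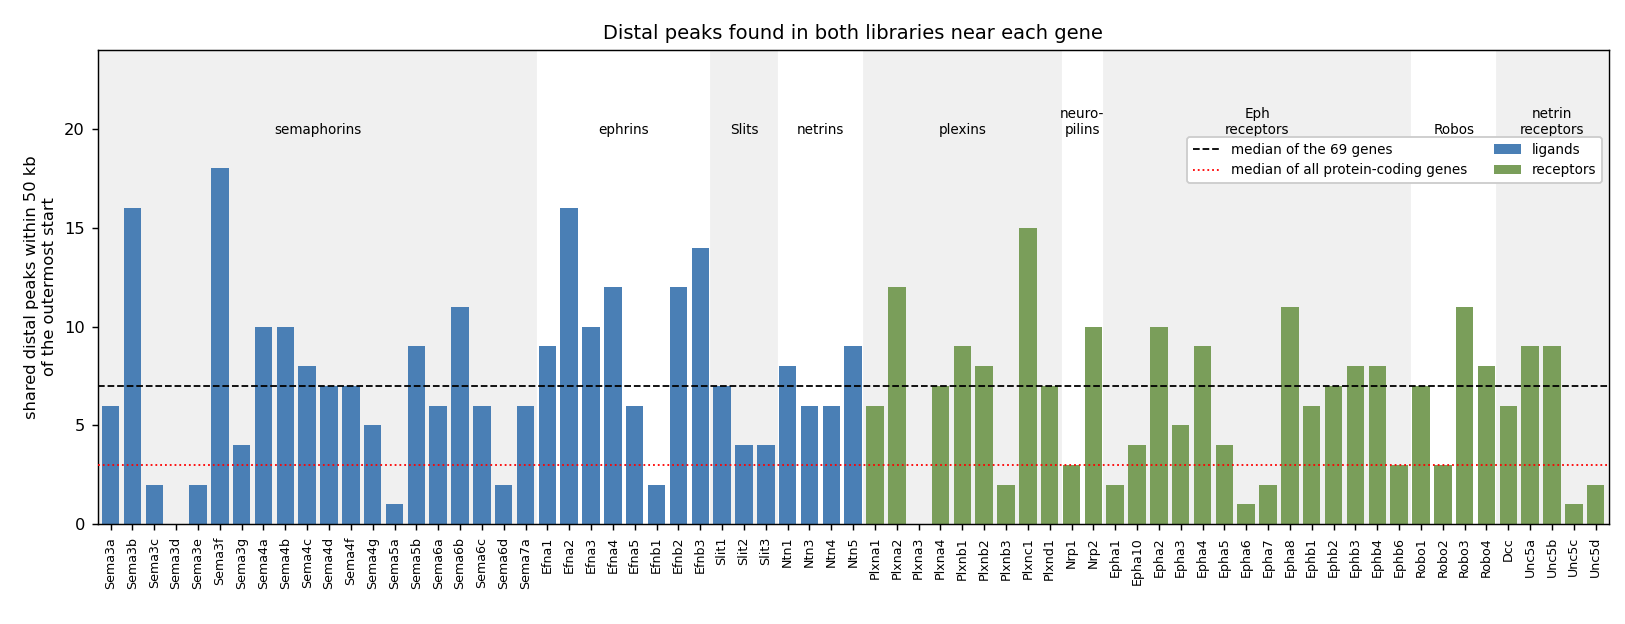
Number of shared distal peaks within 50 kb of the outermost start (vertical axis) of each of the 69 genes (horizontal axis, by family), ligands in blue and receptors in green. The dashed line is the median of the 69 genes, 7, and the dotted line that of all protein-coding genes, 3.

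Among ligands, Sema3f and Sema3b, secreted semaphorins that both lie on chromosome 9, had 18 and 16 distal sites. None of these sites was within 50 kb of both genes. Counted within each library, Sema3f had 35 and 23 distal peaks in replicates 1 and 2, and Sema3b had 19 in each. The other secreted class 3 genes had fewer. Sema3d had 0 shared distal sites, with 3 peaks in replicate 1 and 0 in replicate 2, Sema3c and Sema3e had 2 each, Sema3g had 4 and Sema3a had 6. Class 3 thus had a median of 4, and the 13 semaphorins of classes 4 to 7, which are bound to the membrane apart from shed forms, a median of 7 and a range of 1 (Sema5a) to 11 (Sema6b).

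The ephrins had the highest family median, 11. Efna2 had 16 sites (37 and 22 peaks in replicates 1 and 2), Efnb3 had 14 and both Efnb2 and Efna4 had 12. Efnb1, on the X chromosome, had 2. Many of these sites lay inside other genes, 8 of 16 for Efna2, 9 of 14 for Efnb3, 9 of 12 for Efna4 and 6 of 9 for Efna1. For Efna3 it was 3 of 10, for Efnb2 1 of 12, for Efna5 0 of 6 and for Efnb1 0 of 2. Ephrins had a median of 4 other coding genes starting within 50 kb, against 0 over the 69 genes. Efna1, Efna3 and Efna4 lie together on chromosome 3 and share sites: 6 sites were within 50 kb of all 3 genes and 4 more within 50 kb of Efna3 and Efna4, so their counts of 9, 10 and 12 are not independent. Slit1 had 7 sites, and Slit2 and Slit3 had 4 each. The netrins had 8 (Ntn1), 6 (Ntn3 and Ntn4) and 9 (Ntn5). All 9 sites near Ntn5, which had no promoter peak, lay inside other genes.

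Among receptors, Plxnc1, a semaphorin receptor, had 15 distal sites and Plxna2 had 12, while Plxnb3 had 2 and Plxna3 had 0, with 2 distal peaks in replicate 1 and 0 in replicate 2. Nrp2, the neuropilin that serves Sema3f, had 10 and Nrp1, which serves Sema3a, had 3. Of the Eph receptors, Epha8 had 11 and Epha2 10, while Epha1 and Epha7 had 2 and Epha6 had 1. Epha4, which is known for its role in rhombomere borders, had 9. Epha7 therefore paired one of the strongest promoter peaks with one of the lowest distal counts. Robo3 had 11 and its neighbour Robo4 had 8, of which 6 sites were the same, so most sites counted for Robo4 also lay near Robo3. Robo1 had 7 and Robo2 had 3. Unc5a and Unc5b had 9 each, Dcc 6, Unc5d 2 and Unc5c 1.

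The strongest distal sites were mostly near ephrins and Sema3b. The strongest, 29991 bp upstream of Efna2 inside an intron of Midn, scored 147 in replicate 1 and 129 in replicate 2. It was 1219 bp from the nearest annotated start, so it lay close to the promoter of another gene. The Efna2 site 19471 bp upstream scored 144 and 116, and the one 14311 bp upstream scored 136 and 99. The site 3642 bp upstream of Sema3b scored 121 and 120. It ranked higher in replicate 2, above 99.4% of peaks, than in replicate 1, above 95.7%. A further Sema3b site 35502 bp upstream scored 122 and 99. Sema3b thus had a low-scoring promoter peak in replicate 1 alone beside a pair of distal sites that scored above 95% of peaks in both libraries.

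The other strong sites were 21306 bp upstream of Efnb3 inside an intron of another gene and 1106 bp from an annotated start (139 and 110), 1603 bp upstream of Sema6a (139 and 107), 40291 bp upstream of Ntn5 inside an intron of Mamstr (145 and 98) and 11678 bp upstream of Ephb4 (138 and 97). The last was 1022 bp from an annotated start of another gene. The Efnb2 site 2231 bp downstream of its start (131 and 93) was the one among these 10 that lay inside its own gene, in an intron.

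**Figure D4:**
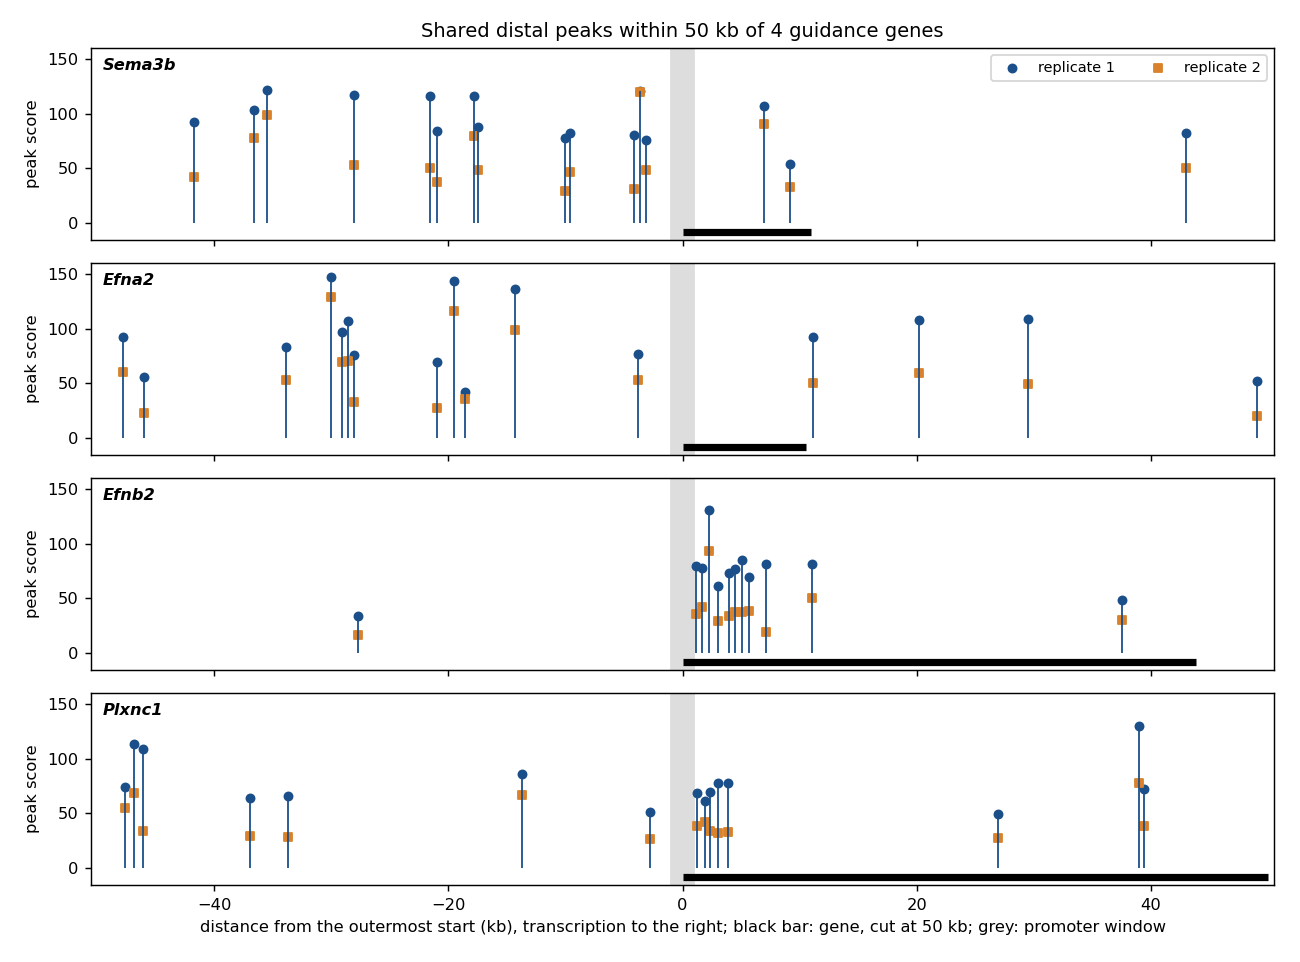
Score (vertical axis) of each shared distal peak within 50 kb of the outermost start of Sema3b, Efna2, Efnb2 and Plxnc1 against distance from that start in kb (horizontal axis), with circles for replicate 1 and squares for replicate 2. Of the Sema3b sites 13 of 16 lie upstream, and of the Efnb2 sites 11 of 12 lie inside the gene.

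The placing of sites differed between genes. Of the 16 sites near Sema3b, 13 lay upstream of its start, and of the 16 near Efna2, 12 did. In both genes 8 of the 16 lay inside other genes. Of the 12 near Efnb2, 11 lay in its own introns and 9 lay within 10 kb of the start. Their scores in replicate 1 were 61 to 85 apart from the strong site at 2231 bp and the one at 37531 bp, which scored 48 and 30. Dcc had 5 of its 6 sites in its own introns, between 1498 bp and 4238 bp from its start, with scores of 71 to 105 in replicate 1 and 31 to 49 in replicate 2. Nrp2 had 6 of its 10 in its own introns, and an intergenic site 6114 bp upstream scored 123 and 78. Unc5a had an intronic site 6820 bp from its start with scores of 126 and 79. The site near both Robo3 and Robo4 with the highest score, 130 and 90, had its midpoint in an exon of Robo3, 12355 bp from the Robo3 start.

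Over the 454 sites, 51.3% had their midpoint in an intron, 39.4% between genes and 9.25% in an exon, against 48.8%, 46.0% and 5.17% of all 81031 shared distal peaks. Of the 454, 178 lay inside the guidance gene itself. The 454 sites had median scores of 78 in replicate 1 and 38 in replicate 2, against 68 and 32 over all shared distal peaks. Of the 454, 448 scored higher in replicate 1, the library with the higher scores at large. The share of all shared distal peaks that did so was not counted. The Spearman correlation of scores between the libraries was 0.798 over the 454 sites and 0.794 over all shared distal peaks.

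The libraries differed in how many distal peaks they held near these genes, 1008 in replicate 1 and 551 in replicate 2. Of the 1008, 54.96% were private to replicate 1 (95% Wilson interval 51.88% to 58.01%, covering counting error only), against 62.79% of all its distal peaks. Of the 551, 15.97% were private to replicate 2 (13.15% to 19.26%), against 23.55%. Distal peaks near guidance genes were thus shared somewhat more often than distal peaks at large in both libraries. Slit1 had 30 distal peaks in replicate 1 but 7 in replicate 2, and Unc5c had 14 but 1. In a few genes the counts were level or reversed, as for Sema3b with 19 and 19, Robo3 with 18 and 19, and Sema6c with 6 and 9.

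Motif letters were sought on both strands in the 454 sites. CAGCTG was in 15.4% (16.6% of all shared distal peaks), CAGATG, another E-box, in 14.3% (17.7%), and TAATTA, a homeodomain core, in 4.63% (6.85%). TTGGCA, an NFI half-site, was in 12.1% (16.2%), ACAATG, a SOX site, in 6.39% (8.71%), and GTTGCC in 9.69% (9.29%). The CTCF consensus was in 6.83% (6.86%). The octamer ATGCAAAT was in 4 sites, or 0.88% (1.78%), and TGATTGAT, a HOX-PBX site, in 0 (0.71%). Both are rare in all shared distal peaks, so these counts are too small to read. Every motif but GTTGCC was at or under its share in all shared distal peaks. The median GC content of the sites was 54.7% against 50% over all shared distal peaks, and its part in these shares was not tested.

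The window of 50 kb leaves out most of a long gene. In all, 486 shared distal peaks lay inside the guidance genes, 454 of them in introns, and 308 were farther than 50 kb from the outermost start. Slit3, which spans 587.3 kb on chromosome 11, held 45, the most of any, of which 43 were beyond 50 kb, the farthest 576.5 kb from the start. Their median scores were 69 and 31, and the highest reached 127 and 80. So Slit3 had one of the weakest promoter peaks, 4 distal sites near its start and the largest number inside the gene. Slit2 held 10 in 324.6 kb and Slit1 15 in 143.4 kb. Plxna4 held 25, Ephb1 23, Sema6d 21, and Dcc and Sema5b 19 each. Dcc, the longest guidance gene at 1097 kb, had a site 962.5 kb from its start. Epha6, at 951.8 kb, held 8. No site lay inside 13 of the genes.

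**Figure D5:**
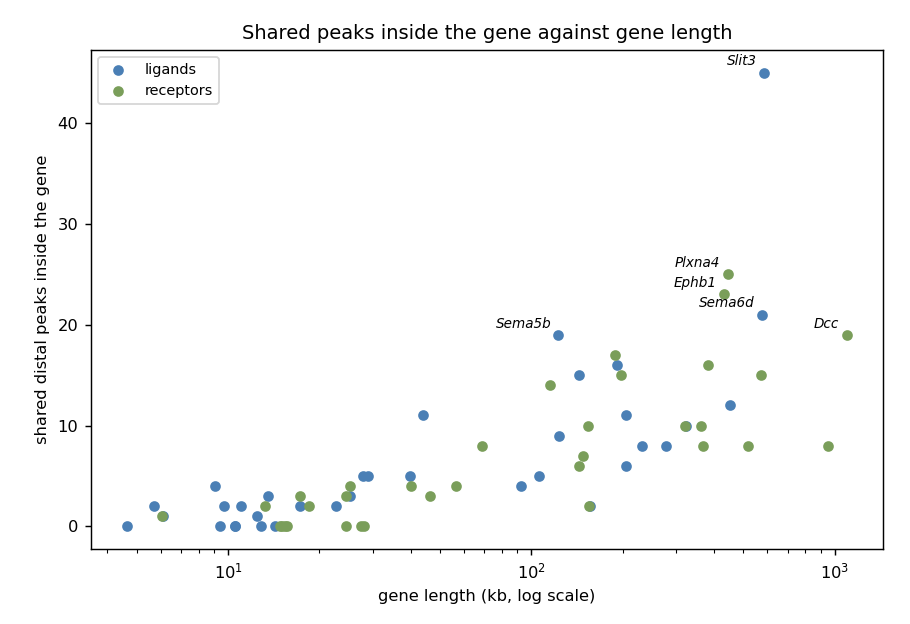
Number of shared distal peaks inside the gene (vertical axis) against gene length in kb (horizontal axis, log scale) for the 69 genes, ligands in blue and receptors in green, with genes of 19 or more named. Slit3 stands highest with 45 sites, and Dcc, the longest gene, has 19.

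Gene length and position went with these counts. Guidance genes were long, with a median of 46.3 kb against 16.7 kb over all protein-coding genes. The 35 genes under 50 kb had a median of 8 distal sites, the 16 of 50 to 200 kb a median of 7.5 and the 18 over 200 kb a median of 4, while all protein-coding genes had 3 in each class. The Spearman correlation of length with the distal count was -0.39 over the 69 genes and 0.07 over all 21938. Sites inside the gene, per 100 kb, had medians of 7.17 in guidance genes of 50 to 200 kb against 3.30 in all such genes, and of 3 against 3.31 in those over 200 kb. So the long guidance genes had distal counts nearer to the background than the short ones did. Short guidance genes had a median of 3 other coding genes in the same window and the longer classes 0, against 2, 0 and 0 over all protein-coding genes. The Spearman correlation of the number of such neighbours with the distal count was 0.29 over the 69 genes and 0.06 over all 21938. For the CpG ratio at the outermost start it was 0.08 over the 69 genes and 0.29 over all 21938. The part of neighbours and of CpG content in the counts was not tested.

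Other genes of guidance signalling also had open promoters in most cases. Of 63 such genes outside the families above, 62 held a shared promoter peak, against 64.6% of all protein-coding genes. Of the 63, 47 were CpG-rich, a class in which 96.6% of all genes held one. The open genes comprised all 24 further cues, co-receptors and adhesion partners and 38 of 39 cytoplasmic effectors. The exception was Mical3, from a family that acts on actin downstream of plexins, which had a promoter peak in replicate 1 alone. The median distal count of the 63 was 6, against 3 over all protein-coding genes. Ptprs, a receptor for proteoglycans, had 21 sites, Srgap3, which acts downstream of Robo receptors, had 18, and Draxin, a repellent that binds Dcc, and Dscaml1, an adhesion molecule, had 15 each.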

How the data were processed

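DNase-seq was done on 2 libraries of embryonic hindbrain, a single group, so no test between conditions was possible and no p-value is given. For each library the authors deposited peaks on mm10 with a score per peak, a whole number whose meaning is not given in the sources used here, and hotspots with a −log10 q-value, capped at 100. The files give no read counts, aligner or caller settings. Peaks off the assembled chromosomes were left out (253 and 303).

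Gene models were the basic set of GENCODE M21 on GRCm38, and sequence came from the same assembly. The outermost start of a gene is that of its basic transcripts. Peaks were called shared at 1 bp of overlap and placed by the position in replicate 1. The members and lists were chosen with earlier results of these data known, so counts and medians over genes are descriptions. The genes named with full values are those without a shared promoter peak, those with the 2 highest and 2 lowest distal counts per family, those with the 10 strongest promoter peaks or distal sites, and the one with most sites inside it. Other genes given values, such as Epha10 and Sema3g, were chosen after their values were seen. Intervals are 95% Wilson intervals. Alternatives were windows of 500 and 2500 bp and of 20 and 100 kb, other start choices, 50% overlap, higher scores, hotspots and single libraries. Counting functions were tested on simulated data. Python 3.11.15, pandas 2.3.3, SciPy 1.17.1 and pysam 0.24.0 were used.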

Additional observations from a re-analysis of the deposited data

How the results depend on the processing

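The count of genes with an open promoter was 62 to 66 with another window, the outermost start alone, 50% overlap, higher scores or hotspots, and 65 to 68 from a single library. The median distal count was 3 at 20 kb (all protein-coding genes 1), 11 at 100 kb (7), 4 when each peak was given to its nearest start alone (1) and 5 with peaks at or above the library's median score (2), and 8 to 14 from a single library. The ordering against all protein-coding genes was the same in each. Distinct sites numbered 239 at 20 kb and 727 at 100 kb, and 551 to 1008 from a single library. The private share of replicate 1 was 58.73% at 50% overlap and 50.15% with peaks at or above the median score, and that of replicate 2 was 23.96% and 5.899%. No paired analysis was possible because there is 1 group and no result comes from a test.

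Replicate 1 gave the higher counts, and with 2 libraries of unknown depth the spread between embryos is not known. Peak scores cannot be read as amounts of cutting. A site within 50 kb of a gene need not act on it, and neighbouring genes share sites.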

Other observations

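Secreted semaphorins and their co-receptors can be set side by side. Sema3f and its co-receptor Nrp2 had 18 and 10 shared distal sites, whereas Sema3a and its co-receptor Nrp1 had 6 and 3. Counted inside the gene, Sema3f held 5 and Sema3a 11, the reverse order, while Nrp2 held 14 and Nrp1 6. Promoter scores in replicates 1 and 2 were 117 and 83 for Sema3f, 136 and 89 for Nrp2, 111 and 60 for Sema3a and 119 and 55 for Nrp1, so both members of the first pair were higher in both libraries. These genes were picked after their values were seen.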
